A study of Mus musculus with 12 samples.

Results

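The heat shock chaperones examined here are 10 genes, Hspa8, Hspa1a, Hspa1b, Hsph1, Dnajb1, Hsp90aa1, Hsp90ab1, Hspb1, Bag3 and Hsf1. They were chosen by symbol, as the rows of the count tables whose mouse Entrez ID maps to these names. All 10 were found among the 27179 genes of the tables, and all 10 were among the 14219 genes kept for testing. RNA was sequenced from retinal pigment epithelium (RPE), the pigmented layer beneath the photoreceptors, of wild-type male C57BL/6J mice. Of the 6 mice, 3 were aged 22 months (22m) and 3 were aged 5 months (5m). Each eye gave 1 library, so there were 12 libraries, and both eyes of a mouse were summed before the ages were compared. The labels name 2 independent experiments, called batches here. At either age, batch 1 comprised mice 1 and 2, and batch 2 comprised mouse 3 alone. All groups passed through the same enzymatic isolation with warm incubations at 37 °C before RNA was taken, so the levels are those of cells after isolation and not of the eye in place.

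Heat shock proteins are molecular chaperones that hold, fold or hand on other proteins. HSP70 proteins bind exposed hydrophobic stretches in a cycle driven by ATP, HSP40 (J-domain) proteins deliver clients and start that cycle, and nucleotide exchange factors end it. HSP90 proteins finish the folding of kinases and receptors, and small heat shock proteins hold unfolding clients without ATP. The transcription factor HSF1 is kept inactive by chaperones, is freed when proteins misfold, and then binds heat shock elements, repeats of the 5-base unit nGAAn in alternating orientation. The RPE digests shed photoreceptor tips every day, and its chaperones are studied for their part in protein turnover.

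Part of the promoter sequence is shown here because Hspa1a and Hspa1b can hardly be told apart by it, and the letters of the heat shock element were searched for in it. In the RefSeq windows of GRCm38.p6, which run from 250 bases before to 50 bases after a start, 6 of the 10 genes were found, with 8 windows. Searched on both strands, the pair of units GAANNTTC or TTCNNGAA was in 15.1% of all 32851 windows. By gene, it was in 17% of all 27025 genes with a window and in 5 of the 6 here. Hspa1a and Hspa1b, among the 5, hold the same match at the same distance. The run of 3 units GAANNTTCNNGAA or TTCNNGAANNTTC, which contains the pair, was in 0.603% of windows. By gene, the run was in 0.662% of all genes with a window and in 1 of the 6 here, Hsph1. Capitals below mark the bases of each pair that the motif fixes. The stretches are from chr17:34972223-34972290 (minus strand, bases -134 to -67 from the start) for Hspa1a, chr17:34959305-34959372 (minus strand, same distance) for Hspa1b and chr5:135887772-135887859 (plus strand, bases -147 to -60) for Hspb1, and each lies upstream of the annotated start.
Hspa1a: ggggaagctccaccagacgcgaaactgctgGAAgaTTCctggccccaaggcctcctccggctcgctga
Hspa1b: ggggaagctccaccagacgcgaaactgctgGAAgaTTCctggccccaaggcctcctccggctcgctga
Hspb1: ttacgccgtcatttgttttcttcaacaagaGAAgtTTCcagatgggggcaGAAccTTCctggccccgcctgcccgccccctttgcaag

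By RefSeq on the same build, Hspa1a is at chr17:34969359-34972156, Hspa1b at chr17:34956429-34959238 and Hspb1 at chr5:135887919-135889563. The Hspa1a and Hspa1b stretches were identical over all 68 bases, and 247 of the 250 bases upstream of their starts were the same. Hspb1 held 2 pairs, at bases -117 to -110 and -97 to -90. Hsph1 held its run of 3 units, TTCtgGAAagTTC, after the start, at bases 16 to 28 of one of its windows, and 1 more pair before the start. Bag3 held 1 pair after its start, and Dnajb1 held none of these letters in its windows, which says nothing of elements elsewhere. These matches are descriptions of letters, and no binding was measured.

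The transcripts also overlap in sequence, which bears on the counts of several of them. Of all 75-base stretches (the read length) of the Hspa1a transcript, 61.7% occur in a transcript of another gene, and 55.8% of those of Hspa1b do, all of them in Hspa1a. The share was 68.6% for Hspa8, mostly with the pseudogene Gm15459, 53.1% for Hsp90aa1, mostly with Gm12346, and 47.3% for Hspb1, with Hsp25-ps1. It was 0.736% for Hsp90ab1 and 0 for Hsph1, Dnajb1, Bag3 and Hsf1. How such reads were assigned is not given in the sources used here, so the split between Hspa1a and Hspa1b in particular is uncertain. The 3 small nucleolar RNA genes Snord14c, Snord14d and Snord14e lie within Hspa8.

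The libraries held 9171131 to 12324029 counts each at 22m and 9758665 to 13217909 counts each at 5m. Levels are given as CPM, counts scaled to a common library total after TMM scaling. The 18 RPE markers averaged between 8.24 and 9.95 log2 CPM in 22m libraries and between 9.54 and 10.31 log2 CPM in 5m libraries, so the labelled cell type was present in all. The 16 rod photoreceptor markers averaged 5.78 to 9.63 log2 CPM in 22m libraries and 4.66 to 7.55 log2 CPM in 5m libraries, and 15 of the 16 were called higher at 22m, while 6 of the 18 RPE markers were called lower. Summed, the rod markers took 1620 to 28730 CPM of 22m libraries and 822 to 6412 CPM of 5m libraries. The 9 tested lens markers summed to 34.7 to 301 CPM in 22m libraries and to 20.4 to 838 CPM in 5m libraries. Of the other marker lists, 2 of 8 tested cone, 1 of 10 Mueller glia, 3 of 8 surface epithelium and 4 of 10 immune genes were called higher at 22m and 0 lower, and 0 of 9 lens, 0 of 10 endothelium and 0 of 11 muscle genes were called. The part of other cells in the results was not tested beyond a fit of all tested genes with the rod score as a covariate. In bulk samples such as these, fewer cells of a type and less RNA per cell cannot be told apart.

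At 22 months the 10 genes were mostly lower than at 5 months, by modest amounts, and none passed the test. Genes were compared on mouse sums with edgeR's quasi-likelihood test and a batch term (n = 3 mice per age). Calls needed an absolute log2 fold change over 0.25 and a p, adjusted over all tested genes by Benjamini-Hochberg, under 0.05. The test called 1090 of the 14219 genes, or 7.67%, and 0 of the 10. At an unadjusted p under 0.05, 2 of the 10 (Hspa8 and Hsp90ab1) were lower and 0 were higher, against 14.6% of all genes that were lower by that measure. The log2 fold change, 22m over 5m, was negative for 9 of the 10 and for 51.7% of all tested genes. Its median was -0.35 over the 10 and -0.01 over all genes, and 9.13% of all genes lay below the median of the 10. That median was closer to 0 when certain mice were left out, at -0.22 without 5m mouse 2 (16.4% of all genes below it) and at -0.17 without mouse 3 of either age (28.1% below it), and it was -0.47 without 5m mouse 1. DESeq2 on the same sums called 1 of the 10 lower, Hspa8, where 6.07% of all genes were called lower.

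**Figure D1:**
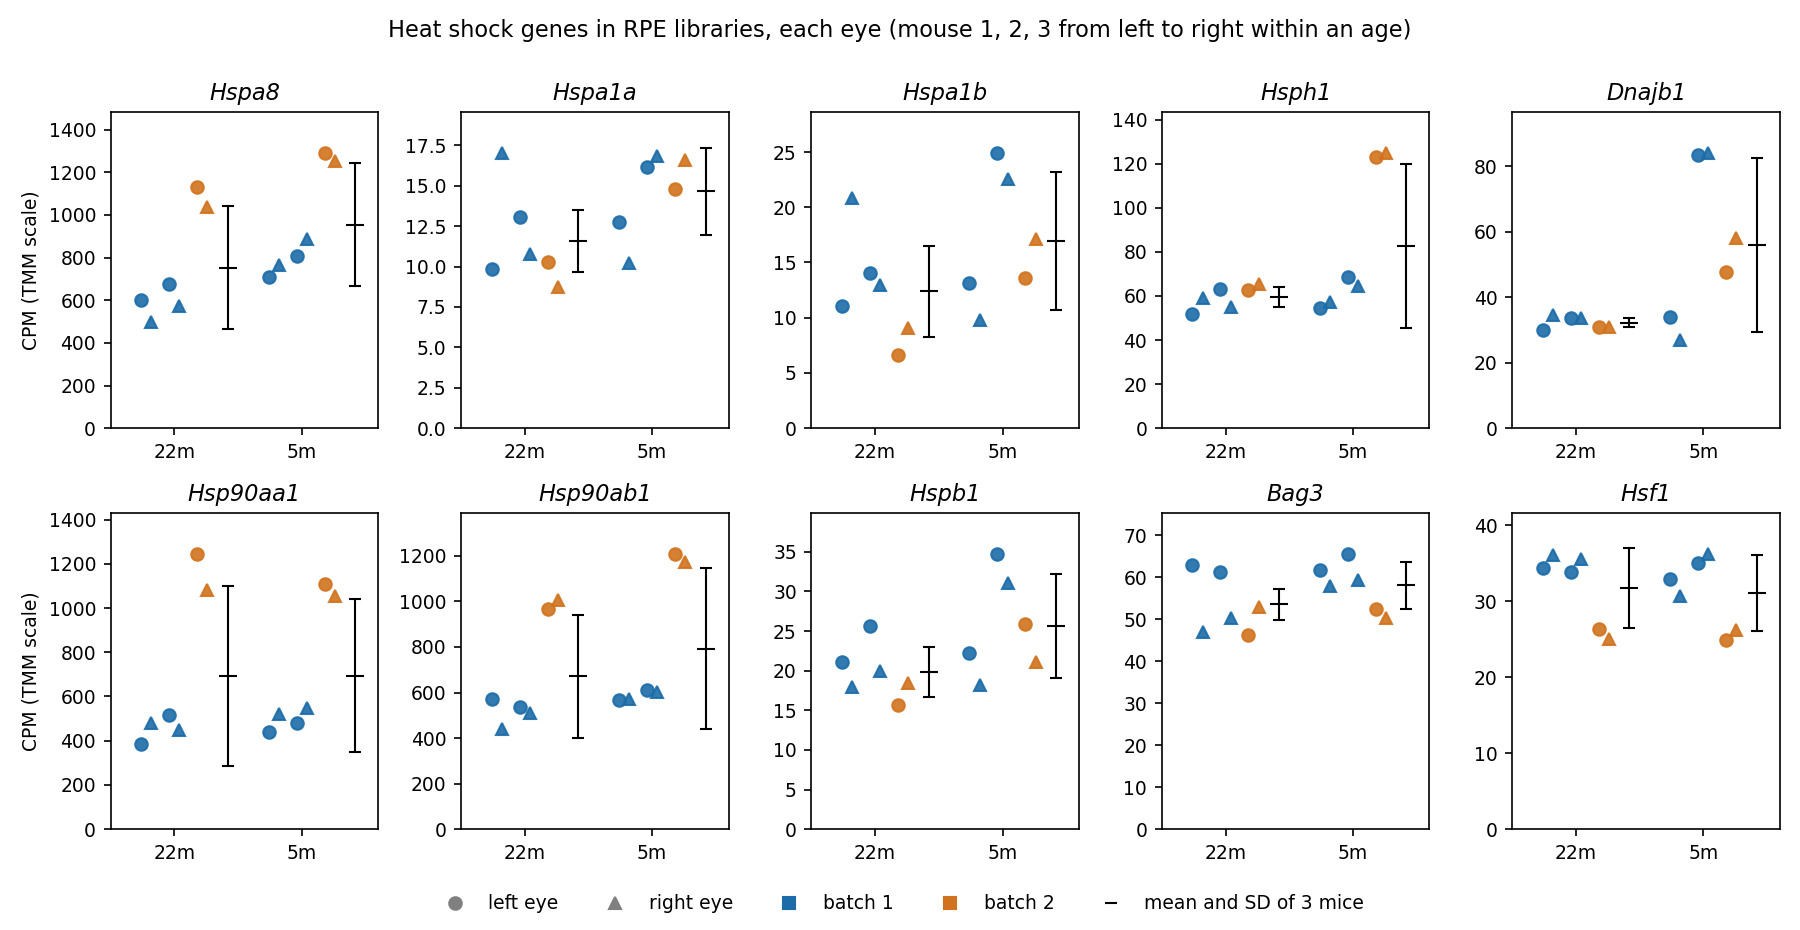
CPM of the 10 genes in each eye library, with 22m left of 5m in every panel. Circles are left eyes, triangles right eyes, blue is batch 1, orange is batch 2, and the bar is the mean with SD over 3 mice. Hsp90aa1, Hsp90ab1 and Hspa8 sit highest in batch 2 at either age, and Dnajb1 sits at 83.4 and 83.9 CPM in the eyes of 5m mouse 2.

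Hspa8 encodes HSC70, the constitutive HSP70 that also uncoats clathrin vesicles and delivers clients to lysosomes in chaperone-mediated autophagy. The eyes of 22m mice had 599 and 498 CPM (mouse 1), 677 and 575 CPM (mouse 2) and 1129 and 1038 CPM (mouse 3), left eye first. The eyes of 5m mice had 711 and 768 CPM (mouse 1), 806 and 886 CPM (mouse 2) and 1289 and 1252 CPM (mouse 3). Over all libraries the ages overlapped, because both mice of batch 2 were high. Within batch 1 every 22m eye was below every 5m eye, and the same held in batch 2. Averaged over mice, Hspa8 was 753 ± 287 CPM at 22m and 955 ± 288 CPM at 5m (SD, n = 3 each), an SD that includes the batches. With batch in the fit its log2 fold change was -0.36 (standard error 0.11), a level 0.777 times that at 5m, with an adjusted p of 0.0981.

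Tools that gave more calls over all genes also called Hspa8. DESeq2 on mouse sums gave an adjusted p of 0.0206. Voom on single eyes, which treats mouse as a random effect, gave 0.0185 in a fit that called 8.32% of all genes lower. Over the 19 alternatives the log2 fold change of Hspa8 stayed between -0.51 and -0.23, with adjusted p between 3.79e-06 and 0.868. Hspa8 also varied with the RPE markers of a library. With batch means taken away, its log2 CPM correlated with the mean of the 18 RPE markers at r = 0.97 over the 12 libraries. With the mean of the rod markers it had r = -0.78. The libraries share mice, eyes and depth. Age means were left in, so these r values also hold the age difference. The median log2 fold change by age was -0.69 over the RPE markers and 1.63 over the rod markers. With the rod score as a covariate the log2 fold change of Hspa8 was -0.25 (adjusted p = 0.339, voom), against -0.38 in voom without it. Hsp90ab1 (-0.22 to -0.15), Dnajb1 (-0.67 to -0.55), Bag3 (-0.12 to -0.06) and Hsp90aa1 (-0.07 to -0.02) also became smaller in size. Hspa1a (-0.34 to -0.48), Hspa1b (-0.425 to -0.53) and Hsph1 (-0.39 to -0.50) became larger, and Hspb1 and Hsf1 hardly moved. The part that cell makeup has in the age difference was not tested otherwise.

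Hsp90ab1 and Hsp90aa1 encode the constitutive and the inducible cytosolic HSP90. Hsp90ab1 had 574, 441, 537 and 508 CPM in the batch 1 eyes and 966 and 1007 CPM in the batch 2 eyes of 22m mice, against 569, 572, 612 and 604 CPM in the batch 1 eyes and 1207 and 1173 CPM in the batch 2 eyes of 5m mice. Within each batch the mouse sums of 22m were below those of 5m, although the left eye of 22m mouse 1 (574 CPM) was above both eyes of 5m mouse 1. The fit put the difference at -0.23 on the log2 scale (standard error 0.08, adjusted p = 0.135). Hsp90aa1 had 385, 480, 517 and 449 CPM in batch 1 eyes and 1243 and 1081 CPM in batch 2 eyes of 22m mice. In 5m mice it had 441, 522, 479 and 546 CPM in batch 1 eyes and 1110 and 1056 CPM in batch 2 eyes. The ages overlapped in batch 1, and the log2 fold change was -0.05 (standard error 0.10; adjusted p = 0.782). Its sign was not stable, at 0.04 with left eyes only, 0.02 without 22m mouse 1 and 0.00 without 5m mouse 2.

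Hspa1a and Hspa1b encode the stress-inducible HSP70, which is low in unstressed cells and rises steeply on heat or misfolding. Hspa1a had 9.82, 17.0, 13.0, 10.8, 10.3 and 8.71 CPM in the 6 eyes of 22m mice (mice 1 to 3, left before right), against 12.8, 10.2, 16.2, 16.8, 14.8 and 16.6 CPM in the 6 eyes of 5m mice. Hspa1b had 11.0, 20.9, 14.1, 13.0, 6.65 and 9.06 CPM in the eyes of 22m mice, against 13.1, 9.81, 24.9, 22.6, 13.6 and 17.1 CPM in the eyes of 5m mice. The ages overlapped for both genes, and each eye rested on 77 to 269 raw counts. The right eye of 22m mouse 1 was the highest of its age for both genes, and its left eye held much less. The log2 fold change was -0.35 (standard error 0.19, adjusted p = 0.271) for Hspa1a and -0.50 (standard error 0.30, adjusted p = 0.302) for Hspa1b. With 1 mouse left out in turn these ran between -0.54 and -0.15 and between -0.82 and -0.23. Summed as 1 gene, since much of their sequence is shared, the pair had a log2 fold change of -0.42 (adjusted p = 0.278).

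Dnajb1, an HSP40 protein that brings misfolded clients to HSP70, showed the largest log2 fold change of the 10 and the widest range of it when 1 mouse was left out. Its eyes had 30.1, 34.7, 33.6, 33.6, 30.8 and 31.1 CPM at 22m, a narrow range. At 5m they had 34.0 and 27.0 CPM in mouse 1, 83.4 and 83.9 CPM in mouse 2 and 47.6 and 58.0 CPM in mouse 3. The mean was 32.2 ± 1.41 CPM at 22m and 55.9 ± 26.7 CPM at 5m (SD, n = 3 each). Nearly all of the spread lay among the 5m mice, of which mouse 1 (30.7 CPM) was at the level of the 22m mice. The fit put the difference at -0.80 on the log2 scale (standard error 0.35, adjusted p = 0.181). Without 5m mouse 2 it was -0.29. Without 5m mouse 1 it was -1.12 with an adjusted p of 0.0349, and Dnajb1 was then called, in a fit that called 0.513% of all genes lower.

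Hsph1 encodes HSP110, which serves HSP70 as a nucleotide exchange factor and helps to take aggregates apart. It had 51.8, 58.9, 63.1, 55.2, 62.7 and 65.6 CPM in the eyes of 22m mice, against 54.4, 57.4, 68.8, 64.6, 123 and 125 CPM in the eyes of 5m mice. The eyes of 5m mouse 3 were far above all others, and the rest of the ages overlapped. The log2 fold change was -0.39 (standard error 0.19, adjusted p = 0.230 by edgeR). Without mouse 3 of either age, which leaves batch 1 alone to carry the age term, it was -0.10.

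Bag3, a co-chaperone that links HSP70 and small heat shock proteins to selective autophagy, differed little by age. It had 62.9, 46.9, 61.2, 50.2, 46.3 and 52.9 CPM in the eyes of 22m mice, against 61.6, 57.9, 65.5, 59.2, 52.4 and 50.3 CPM in the eyes of 5m mice. The eyes overlapped, but the mouse sums of 22m were below those of 5m within each batch. By age Bag3 differed by -0.11 on the log2 scale in the fit (standard error 0.06, adjusted p = 0.244).

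Hspb1 encodes the small heat shock protein HSP25 (HSP27 in human). It had 21.1, 18.0, 25.6, 19.9, 15.7 and 18.4 CPM in the eyes of 22m mice, against 22.2, 18.2, 34.7, 31.1, 25.8 and 21.1 CPM in the eyes of 5m mice. The highest eyes were those of 5m mouse 2, and the other eyes of the ages overlapped. Its log2 fold change was -0.37 (standard error 0.19, adjusted p = 0.241), and without 5m mouse 2 it was -0.17.

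Hsf1, the gene of the transcription factor itself, had a log2 fold change near 0. It had 34.4, 36.2, 33.9, 35.5, 26.3 and 25.1 CPM in the eyes of 22m mice, against 33.0, 30.7, 35.1, 36.2, 24.9 and 26.2 CPM in the eyes of 5m mice. The ages overlapped in either batch. The log2 fold change was 0.03 (standard error 0.07, adjusted p = 0.815), and it was below 0 in 2 of the 19 alternatives, at -0.01 without a filter on low counts and -0.03 without 5m mouse 1. HSF1 is controlled mainly at the protein, by its release from chaperones and by phosphorylation, which RNA counts do not measure.

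Within each batch, every 22m mouse was below every 5m mouse for 3 of the 10 genes (Hspa8, Hsp90ab1 and Bag3) and above for 0. The share was 24.2% among all tested genes for below, so 3 of 10 is near the background. Over all mice, with the batches pooled, the ages overlapped for each of the 10 genes. The share of all tested genes with ages apart by that measure was not counted.

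**Figure D2:**
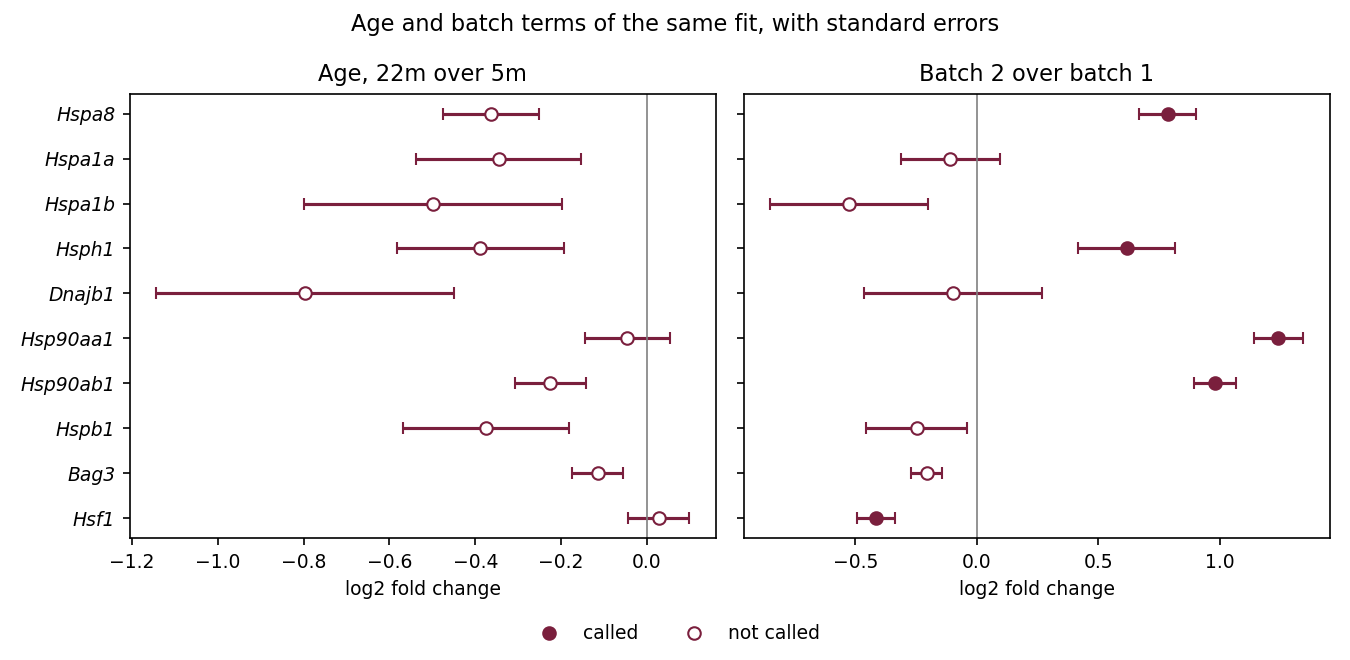
Log2 fold change of each gene by age (22m over 5m, left) and by batch (batch 2 over batch 1, right) from the same edgeR fit, with standard errors. Filled points were called and open points were not, so 0 of 10 are filled for age and 5 of 10 for batch.

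The batches differed more than the ages did. For 7 of the 10 genes the absolute log2 fold change was larger by batch than by age, the exceptions being Hspa1a, Dnajb1 and Hspb1. The share of all tested genes for which this held was not counted, so the 7 cannot be set against a background. In the batch term of the same edgeR fit, 26.3% of all tested genes were called higher and 25.6% lower in batch 2 than in batch 1. Among the 10 genes, 4 were called higher and 1 lower, a share near that of all genes. Hsp90aa1 was 2.36 times as high in batch 2 (log2 fold change 1.24, standard error 0.10, adjusted p = 5.60e-04). Hsp90ab1 was 1.97 times as high (log2 fold change 0.98, standard error 0.09, adjusted p = 6.56e-04) and Hspa8 was 1.72 times as high (log2 fold change 0.79, standard error 0.12, adjusted p = 0.00295). Hsph1 was 1.53 times as high (log2 fold change 0.62, standard error 0.20, adjusted p = 0.0436), a call that rested on 5m mouse 3, without which the log2 fold change was 0.16, and that was lost when any mouse other than 22m mouse 3 was left out. Hsf1 was lower, at 0.749 times the level of batch 1 (log2 fold change -0.42, standard error 0.08, adjusted p = 0.00656). Bag3 passed the adjusted p (0.0373) but, at a log2 fold change of -0.21, not the fold threshold. Hspa1a, Hspa1b, Dnajb1 and Hspb1 were not called between batches, with log2 fold changes of -0.11, -0.53, -0.10 and -0.25. Without 5m mouse 1, however, Hspa1b (-0.79, adjusted p = 0.0116) and Hspb1 (-0.40, adjusted p = 0.0497) were called lower in batch 2 by edgeR, and with 1 mouse left out in turn Hspa1b ran between -0.91 and -0.19. The batches differ in experiment and in whatever went with it, and these cannot be told apart.

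The median left-right difference of the 10 genes was near that of all tested genes, but marker scores differed widely between the eyes of some mice. The rod markers averaged 7.453 log2 CPM in the left and 4.828 in the right eye of 5m mouse 2. In 22m mouse 1 they averaged 7.865 (left) and 9.627 (right). The muscle markers averaged 7.714 (left) and 4.268 (right) in 5m mouse 3. The test of left against right looks only for a shift in the same direction over mice. No gene was called between left and right eyes (0 of 14219, or 0%; edgeR with mouse as a block, 132 genes at an unadjusted p under 0.05, 0 of them among the 10). The log2 fold changes of the 10, left over right, lay between -0.17 (Hspa1b) and 0.19 (Hspb1). The absolute left-right difference in log2 CPM, taken as the median over 6 mice, was 0.05 for Hsp90ab1 at the lowest and 0.38 for Hspa1b at the highest, with a median of 0.15 over the 10 and of 0.17 over all tested genes. The 2 inducible HSP70 genes had the widest single difference, 0.79 for Hspa1a and 0.92 for Hspa1b in 22m mouse 1, in which the median of all genes was also wide, at 0.29 against 0.11 to 0.17 in the other mice. The age difference depended on the eye for 8 of 14219 genes (0.0563%), and for 0 of the 10, among which the smallest adjusted p was 0.294 (Hspa8).

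The eyes of 5m mouse 2 stood apart in genes of the immediate early response, which is switched on within minutes of a stimulus. The 20 immediate early genes averaged 7.44 and 7.55 log2 CPM in its left and right eye, against 3.91 to 4.52 log2 CPM in the other 10 libraries. Each of the 20 was higher in both of its eyes than in all the other libraries, Egr1 with 1120 and 1222 CPM against 26.1 to 55.7 CPM. By the same measure 3 of the 10 heat shock genes (Dnajb1, Hspa1b and Hspb1) and 2.39% of all tested genes were highest in that mouse. Dnajb1 was 2.73 times as high in 5m mouse 2 as in 5m mouse 1 of its batch, a ratio that 0.253% of all genes exceeded, Hspa1b was 2.06 times, Hspb1 1.62 times and Hspa1a 1.43 times. The ratio was 1.05 to 1.20 for Bag3, Hsp90ab1, Hsp90aa1, Hsf1, Hspa8 and Hsph1. In 22m mice of the same batch, mouse 2 over mouse 1, the ratios of the 10 lay between 0.869 and 1.19. The immediate early genes had a median log2 fold change of -1.73 by age, with 20 of 20 below 0, 3 lower at an unadjusted p under 0.05 and 0 called. The part that this response has in the heat shock levels of that mouse was not tested.

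**Figure D3:**
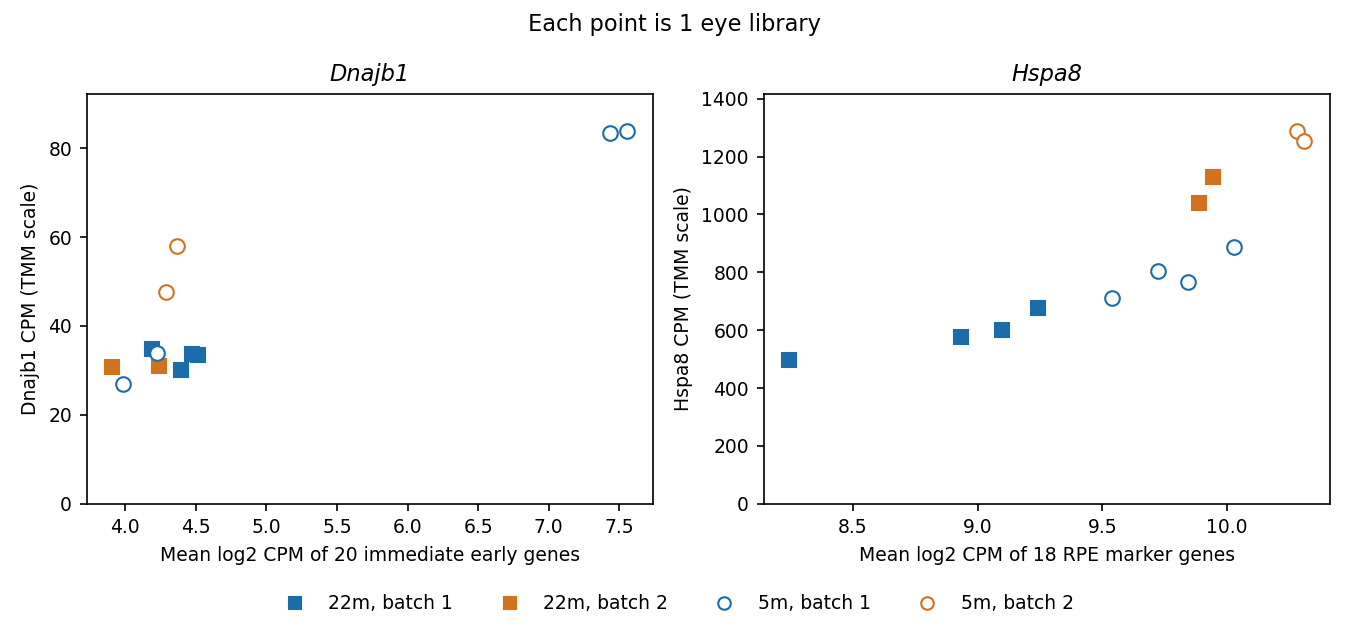
Left, Dnajb1 CPM against the mean log2 CPM of 20 immediate early genes. Right, Hspa8 CPM against the mean log2 CPM of 18 RPE markers. Squares are 22m and circles 5m libraries, blue is batch 1 and orange batch 2. The eyes of 5m mouse 2 lie at 7.44 and 7.55 in the left plot, and Hspa8 runs between 498 and 1289 CPM with the RPE score in the right one.

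Some of the 10 genes varied together over the 12 libraries, as described by Pearson's r of log2 CPM after batch means, but not age means, were removed. The libraries are 6 pairs of eyes that share mouse and depth, so the values are descriptions. Hspa1a and Hspa1b, whose transcripts share much of their sequence, had r = 0.91. Hspa1b had r = 0.86 with Dnajb1, and Dnajb1 had r = 0.86 with Hspb1. Leaving out 5m mouse 2, over 10 libraries, these were 0.88 and 0.61, so the link of Dnajb1 with Hspb1 rested more on that mouse. Dnajb1 followed the immediate early score at r = 0.92 with that mouse and 0.59 without it. Hspa8 and Hsp90ab1 had r = 0.85, or 0.82 without that mouse, and Hsp90ab1 had r = 0.87 with the RPE marker score. Hsph1 had r between 0.64 and 0.79 with Hspa1a, Hspa1b and Dnajb1. The RPE score had r = 0.14 with Hspa1a and r = 0.14 with Hspa1b, far from the 0.97 it had with Hspa8. Without 5m mouse 2 these were -0.185, -0.297 and 0.965, so the sign for Hspa1a and Hspa1b depended on that mouse. The remaining genes had r between -0.37 (Hsf1) and 0.87 (Hsp90ab1) with that score, among them Bag3 (0.68), Hspb1 (0.59) and Dnajb1 (0.52).

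The genes most like the summed Hspa1a and Hspa1b counts, out of all tested genes outside the 10, were Mat2a (r = 0.93), Atf4 (r = 0.93), Tlnrd1 (r = 0.92), Gm13889 (r = 0.92) and Phf13 (r = 0.91). Mat2a encodes the enzyme that makes S-adenosylmethionine and Atf4 the transcription factor of the integrated stress response. Without 5m mouse 2 their r lay between 0.87 and 0.93. They were picked as the highest of 14219 genes, so a high r is what the choice gives.

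Levels can be set side by side between genes when scaled to length, and the order then depends on the length used. All exons of a gene were used first. Means over 6 mice were 244 CPM per kilobase for Hsp90ab1, 199 for Hspa8 and 176 for Hsp90aa1, then 22.1 for Hspb1, 21.8 for Bag3, 13.8 for Dnajb1, 9.78 for Hsph1, 5.23 for Hspa1b, 4.43 for Hsf1 and 4.42 for Hspa1a. Hsp90ab1, Hspa8 and Hsp90aa1 stood well above the rest, with Hsp90aa1 at 7.98 times the level of Hspb1. Several neighbors in that order did not differ beyond their spread. Hspb1 was above Bag3 in 3 of 6 mice, Hspa1b above Hsf1 in 3 of 6 and Hsf1 above Hspa1a in 4 of 6. Hsp90ab1 was above Hspa8 in 6 of 6 mice by this length. By the length of the longest coding transcript, a choice made after seeing the data, Hspa8 (357 CPM per kilobase) was instead above Hsp90ab1 (291) in 6 of 6 mice, Hsph1 had 18.7, and Hsf1, at 14.9, stood near Dnajb1 (14.7) and well above Hspa1b and Hspa1a. That Hsp90ab1, Hspa8 and Hsp90aa1 were the highest held by both lengths. Hspa1a had the lowest mean by both lengths, but by all exons it was level with Hsf1 (4.42 against 4.43). How reads shared with other genes were counted is not known here. The levels of Hspa1a, Hspa1b, Hspa8, Hsp90aa1 and Hspb1 could therefore be too low or too high. The place of Hspa1a as the lowest and the order of Hspa8 and Hsp90ab1 remain uncertain for that reason as well.

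Around the 10 genes, the wider chaperone network was mostly not called either. The lists were put together by hand and with earlier results of these data known, and they are described by counts, against 2.26% of all tested genes that were called lower. Of 11 other HSP70 family genes, 1 was called lower and 0 higher by edgeR's test (median log2 fold change -0.09), and at an unadjusted p under 0.05, 2 were lower and 1 higher. That called gene was Hspa12b, a distant HSP70 relative known from endothelium, with 17.9, 17.9 and 16.2 CPM in 22m mice against 23.0, 23.2 and 20.9 CPM in 5m mice. Its ages did not overlap, and the fit gave -0.37 on the log2 scale (standard error 0.07) with an adjusted p of 0.0447.

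Of 21 other HSP40 genes, 1 was called lower and 0 higher (median -0.07), and at an unadjusted p under 0.05, 3 were lower and 2 higher. Dnaja1, a co-chaperone of HSC70, had 81.6, 90.0 and 215 CPM in 22m mice against 111, 121 and 303 CPM in 5m mice. Within each batch the ages were apart, and the fit gave -0.46 on the log2 scale (standard error 0.08) with an adjusted p of 0.0327. Of 18 other HSP90 proteins and co-chaperones, 1 was called lower and 0 higher (median -0.14). At an unadjusted p under 0.05, 7 of the 18 were lower and 0 higher, where 14.6% of all genes were lower, and 16 of the 18 were below 0, where 51.7% of all genes were. Ahsa1, which speeds up the ATPase of HSP90, had 42.9, 43.4 and 81.7 CPM in 22m mice against 52.1, 53.4 and 107 CPM in 5m mice, or -0.32 on the log2 scale (standard error 0.06) with an adjusted p of 0.0392. These 3 calls did not hold in many settings. Each was lost when mouse 1 or mouse 2 of either age was left out (adjusted p between 0.0707 and 0.162) and with the rod score as a covariate (0.0685 to 0.307). Their log2 fold changes moved little with 1 mouse left out, between -0.37 and -0.36 for Hspa12b, -0.51 and -0.43 for Dnaja1 and -0.35 and -0.29 for Ahsa1. Of 20 settings, 11 called Hspa12b, 12 called Dnaja1 and 11 called Ahsa1. Without mouse 1 or 2 of either age, however, few genes of any kind were called lower. The counts were 0 without 22m mouse 1, 0 without 22m mouse 2, 73 without 5m mouse 1 and 26 without 5m mouse 2. With the rod score 70 genes were called lower, against 321 in the main fit.

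Of 14 tested genes known as other targets of HSF1, 2 were called lower, Dnaja1 and Ahsa1 again, and 0 higher. Several more of these targets, among them Stip1, Chordc1, Fkbp4, Hspd1 and Cryab, also belong to the other chaperone lists. The counts of the lists are therefore not separate from each other. At an unadjusted p under 0.05, 8 of the 14 were lower and 0 higher, where 14.6% of all genes were lower, and the median log2 fold change was -0.20. No gene was called among the 6 tested small heat shock proteins, the 10 nucleotide exchange factors and HSP70 cofactors, the 16 chaperonin and prefoldin genes, the 3 tested HSF genes and the 6 genes of chaperone-assisted autophagy. At an unadjusted p under 0.05 they held 1, 3, 2, 0 and 0 lower genes and 0, 0, 0, 0 and 1 higher genes by edgeR. The nearest of them to the threshold were Synpo2, a partner of Bag3 in muscle, at a log2 fold change of 0.25 (adjusted p = 0.0660), and Cryab, the small heat shock protein alpha B-crystallin, at -0.45 (adjusted p = 0.0990). Hspb2, another small heat shock gene, had 0.37 (adjusted p = 0.255). Grpel1 and Bag4, which drive nucleotide exchange, had -0.28 and -0.32, the chaperonin Hspd1 had -0.18, the prefoldin subunit Pfdn1 had -0.21, Hsf2 had 0.18, the HSF1-binding protein gene Hsbp1 had -0.14 and Lamp2, the lysosomal receptor of chaperone-mediated autophagy, had -0.14, all not called.

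The log2 fold changes of the 10 genes under other settings are drawn in the plot of settings, which does not mark calls. DESeq2 on the authors' batch-corrected counts with each eye as a sample called 9.66% of all genes lower, and 3 of the 10 (Hspa8, Dnajb1 and Hspb1). Limma-trend on the normalized values with a pseudocount of 4 called 11.6% of all genes lower and 2 of the 10 (Hspa8 and Dnajb1). The first of these counts both eyes of a mouse as independent samples, which they are not, so its p-values are too small. The second held the mouse as a random effect, but the correlation it estimated between the eyes of a mouse was -0.215, below 0, which makes its p-values smaller still than independent eyes would. In voom on single eyes that correlation was 0.0481, close to treating the eyes as independent. In DESeq2 on batch-corrected counts and in limma-trend, Hsp90ab1 was not called because its log2 fold change stayed within 0.25.

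**Figure D4:**
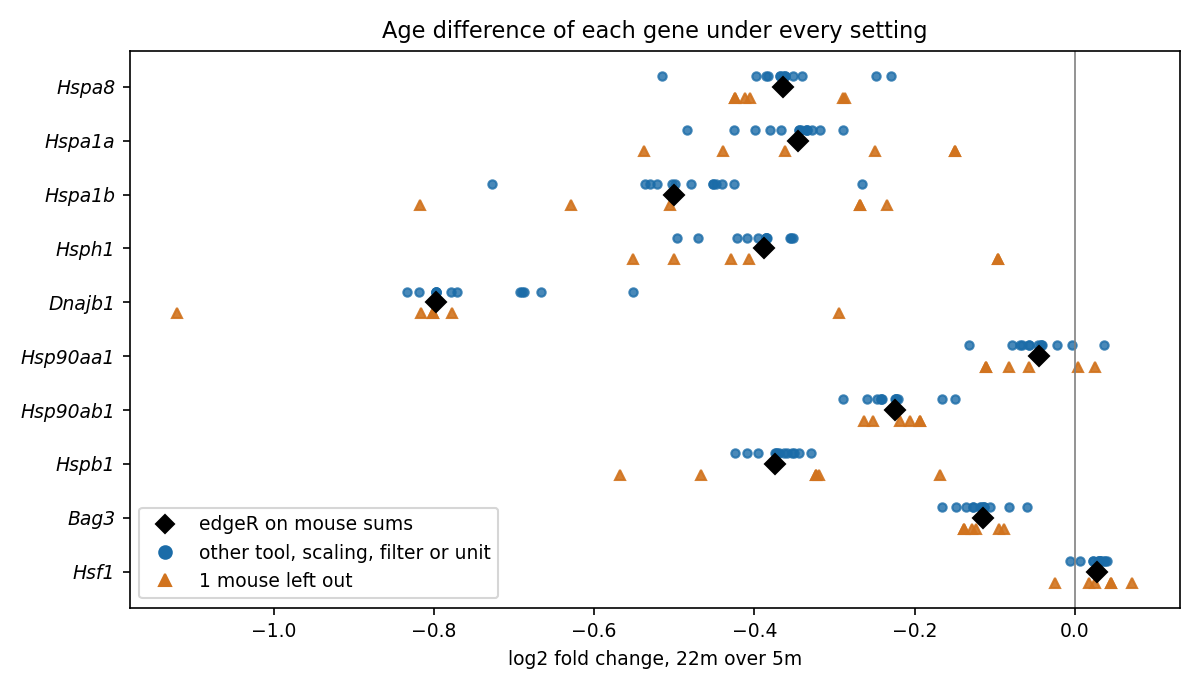
Log2 fold change by age (22m over 5m) of each gene in every setting tried. Black diamonds are edgeR on mouse sums, blue circles other tools, scalings, filters or units, and orange triangles fits with 1 mouse left out. Hspa8 stays between -0.51 and -0.23, Dnajb1 runs between -1.12 and -0.29, and Hsp90aa1 and Hsf1 lie on both sides of 0.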

How the data were processed

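Per the labels and the study's methods, RPE RNA was prepared with a stranded total RNA kit after ribosomal depletion and sequenced as paired 75-base reads. The authors used FastQC for read quality, Trimmomatic for trimming, HISAT2 for alignment to mm10 and featureCounts for counting, with versions and strand setting not given in the sources used here. Counts per gene make up the deposited raw table. The authors' batch-corrected table (ComBat-seq) is treated as estimated counts, rounded to whole numbers. Dividing it by 1 DESeq2 size factor per library gives the deposited normalized table, a signal. Of 27179 IDs, 25275 matched a RefSeq symbol and 18 a GENCODE one.

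Counts of both eyes were summed per mouse (n = 3 per age, 20853656 to 26266140 counts each). Genes with a mean normalized value of at least 20 were kept. The test was edgeR 4.0.16 (R 4.3.3), glmQLFTest with TMM scaling, batch and age. Each standard error is the log2 fold change over the root of its F value. CPM use TMM scaling, with a prior count of 1 for log2 CPM. Alternatives used DESeq2 1.42.0 and limma 3.58.1, other scalings, filters and units, single eyes and each mouse left out. The within-batch count, the transcript lengths and the median in each setting were chosen after seeing the data. The members and lists were chosen with earlier results of these data known. The named genes are the 10, from each list the called members (up to 4) or the 2 of smallest p, and the 5 genes most correlated with summed Hspa1a and Hspa1b. The lists include markers of RPE, rods, cones, Mueller glia, endothelium, lens, surface epithelium, muscle and immune cells.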

Additional observations from a re-analysis of the deposited data

How the results depend on the processing

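Of the 10 heat shock genes, 0 were called in 15 of the 21 alternatives. DESeq2 on mouse sums and voom on eyes called 1 each, DESeq2 on batch-corrected eyes called 3, and limma-trend called 2 with a pseudocount of 4 and 2 with 1. With 1 mouse left out the count was between 0 and 1, the 1 being Dnajb1 without 5m mouse 1. Over all genes, where 321 were lower and 769 higher, the lower and higher calls were 863 and 1502 with DESeq2 on mouse sums, 1183 and 1572 with voom, 1374 and 1949 with DESeq2 on batch-corrected eyes, and 1643 and 2122 (pseudocount 4) or 1660 and 2126 (pseudocount 1) with limma-trend. The rod score as a covariate left 70 lower and 135 higher, left eyes alone 67 and 111, right eyes alone 3 and 9, and no batch term 0 and 2. With 1 mouse left out, lower calls ran between 0 and 1266 and higher calls between 1 and 1729. The most came without mouse 3 of either age, where batch 1 alone carries the age term. The fewest came without 22m mouse 2 (0 lower and 1 higher) or 22m mouse 1 (0 and 4), and 5m mouse 1 or 2 left out gave 73 and 334 or 26 and 78. The cause was not tested.

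With the mouse number as a replicate block in place of batch, 183 genes were lower and 644 higher, and 0 of the 10. Same-numbered mice deviated from the mean of their age with correlations of 0.77, 0.61 and 0.85 across genes. Once batch was removed these were 0.07 and 0.07 for mice 1 and 2, against -0.49 and -0.44 for batch 1 mice of unlike number. The numbers carry the batch. Taking away batch and age means pushes such correlations down, so they cannot settle whether the numbers also pair mice.

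Signs turned for some genes of small fold change. Hsp90aa1 by age was 0.036 with left eyes alone and ran between -0.111 and 0.025 with 1 mouse left out. Hsf1 by age was -0.0069 without a low-count filter and ran between -0.025 and 0.071 with 1 mouse left out. By batch, leaving out 1 mouse moved Hspa1a between -0.419 and 0.170 and Dnajb1 between -0.345 and 0.299. Left over right, it moved Hspa1a between -0.108 and 0.103, Hsph1 between -0.063 and 0.014 and Dnajb1 between -0.102 and 0.021. No other age difference of the 10 changed sign in the alternatives run. Depth limits Hspa1a, Hspa1b and Hspb1 most, with 77 to 375 raw counts in a library.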
